A study of Mus musculus with 30 samples.

Results

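Heat shock proteins and their co-chaperones were followed in the mouse nucleus accumbens, a striatal region of the reward circuit, by the symbols of their genes. The set held every gene with a named probe whose symbol began with Hsp, Dnaj, Cct2 to Cct8 or Bag1 to Bag6, apart from Hspg2, together with Stip1 and Ptges3. Of 88 such genes with a named probe, 74 had a probe above background on at least 5 of the 30 arrays, and they stood among 13228 genes tested. The remaining 14 did not reach that level, among them Hspa13, Hspa14, Hspb2, Hspb7 and Dnajc9. Of the 74 genes, 58 were above background on all 30 arrays and 6 on fewer than 15. At the edge of the rule, Hspb3 was above background on 5 arrays, Hspa12a, Hspa1l and Dnajc11 on 6 and Dnaja1 on 7.

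C57BL mice (strain C57BL/6J in the sample labels) received either saline or dexamethasone, which activates the glucocorticoid receptor, at a dose of 4 mg/kg, and RNA was taken 4 h later. RNA came from whole accumbens tissue, from magnetically sorted astrocytes or from magnetically sorted neurons, which with 2 agents gave 6 groups of 5 Illumina bead arrays. A mouse gave RNA to 1 array, so the spread within a group is between animals. The 6 arrays of each replicate number shared a chip, and each group kept 1 position on it, so group and position on the chip cannot be told apart. Sex, age and the antigens used for sorting were not stated in the labels.

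Chaperones bind unfolded or partly folded proteins. HSP70 proteins work in cycles of ATP binding that J-domain proteins (DNAJ) start and that nucleotide exchange factors such as BAG proteins and HSP110 (Hsph1) complete. HSP90 takes over clients such as the glucocorticoid receptor, with the organising protein Stip1 (Hop) and the p23 co-chaperone Ptges3. Small heat shock proteins hold clients without ATP, and the ring-shaped CCT complex folds actin and tubulin. In stress, the transcription factor HSF1 binds heat shock elements in the promoters of the inducible members.

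The markers of each preparation were present. The mean log2 level of 7 astrocyte markers under saline was 14.6 in astrocytes, 12.2 in tissue and 10.02 in neurons. The mean of 6 markers of medium spiny neurons was 12.6 in neurons, 11.7 in tissue and 8.24 in astrocytes. That of 4 general neuron markers was 11.6 in neurons, 11.9 in tissue and 9.49 in astrocytes. Of these 4, 2 were called lower in neurons than in tissue and 0 higher. Transcripts of other cells moved with the preparations too. Under saline the mean of 8 microglial markers was 9.19 in astrocytes, 9.73 in tissue and 6.28 in neurons, that of 4 mural markers was 10.7, 8.91 and 6.62, and that of 4 red-cell markers was highest in neurons, at 14.2. The mean of 4 markers of dividing cells was 9.88 in neurons, 5.85 in astrocytes and 6.32 in tissue, with 4 of 4 called higher in neurons in both comparisons. The mean of 5 oligodendrocyte markers was 13.8 in astrocytes, 14.3 in tissue and 13.0 in neurons. Of these 5, 3 were called higher in astrocytes than in neurons, and 3 lower in neurons than in tissue. In astrocytes 2 were called lower than in tissue. The part of these cells in the results was not tested. One array stood apart. The dexamethasone tissue array of replicate 5 had 50.2% of its probes above background, against 36.3 to 41.8% on the other 4 arrays of its group, and its median correlation with them was 0.909, while the next lowest such value of any array was 0.958. The members named for dexamethasone in tissue are given with and without it.

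Under saline, some members were called higher in the astrocyte preparation than in both neurons and tissue, and others lower. Among the higher were the small heat shock proteins Hspb8, Hspb6 and Hspb1, the HSP70 co-chaperone Bag3, the HSP70 proteins Hspa2, Hspa1a and Hspa1b, and the J-domain proteins Dnajc3 and Dnajc24. Hsph1, Bag5, Dnajc6, Hsp90aa1, Stip1 and Dnajb1 were among those lower there, as were 4 members of the CCT complex. These differences reached 9.13-fold for Hspb8 and 8.91-fold for Bag3 between astrocytes and neurons. Between astrocytes and neurons 44 of the 74 members were called (59.5%; limma with Benjamini-Hochberg adjustment over all genes, adjusted p under 0.05), against 58.2% of all genes. Of these, 20 were higher and 24 lower in astrocytes, against 27% and 31.2% of all genes, and with cyclic loess scaling 23 were higher and 18 lower. Between astrocytes and tissue 45 members were called, 20 higher and 25 lower in astrocytes, against 51.8% of all genes (24.2% and 27.6%), and with array medians 12 were higher and 29 lower. Between neurons and tissue 21 were called, 5 higher and 16 lower in neurons, against 26.9% (11.1% and 15.9%). The share of members called was therefore close to that of all genes in the neuron comparisons and somewhat above it between astrocytes and tissue, and no test of these shares was made. Fewer cells of a type and less RNA per cell cannot be told apart in such samples, nor can the effects of sorting and of cell type in a comparison of sorted cells with tissue.

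Large differences made up a smaller share of the members than of all genes in the astrocyte comparisons, and a close share between neurons and tissue. Called differences of at least 2-fold numbered 15 of the members between astrocytes and neurons (20.3%, against 31.8% of all genes), 15 between astrocytes and tissue (20.3%, against 25.9%) and 6 between neurons and tissue (8.11%, against 10.3%), and no test of these shares was made. The median log2 difference of the members was -0.11, -0.18 and -0.03, beside -0.08, -0.04 and 0.00 for all genes. The saline arrays of astrocytes and neurons did not overlap for 15 members higher and 20 lower in astrocytes (43.2% of all genes did not overlap). Those of astrocytes and tissue did not overlap for 17 and 23 (38%), and those of neurons and tissue for 4 higher and 17 lower in neurons (23.1%). In astrocytes 16 members were called higher than in both other preparations (21.6%, against 20.2% of all genes). A further 20 were called lower in astrocytes than in both (27%, against 22.3%), and 20 members, Hspd1 and Bag1 among them, were called in no comparison (27%, against 31.8%). Called differences ran from astrocytes through tissue down to neurons for 6 members (Bag3, Dnajc3, Dnajc24, Hspa2, Hspb6 and Hspb8; 6.8% of all genes). They ran from neurons through tissue down to astrocytes for Cct7 and Hsph1 (3.88%), and from tissue through neurons down to astrocytes for Cct6a, Dnajc5 and Dnajc6 (2.05%).

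Hspb8 (chr5:116408491-116422864, GRCm38.p6, as for all positions here) encodes a small heat shock protein that works with Bag3 in the selective autophagy of misfolded proteins. Its log2 level under saline was 13.63, 12.91, 12.96, 13.07 and 12.67 on the 5 astrocyte arrays. It was 11.47, 11.19, 11.47, 11.52 and 11.46 in tissue and 9.43, 9.99, 10.16, 9.47 and 10.24 in neurons. The 3 groups did not overlap, with astrocytes high, tissue between and neurons low. Hspb8 was higher in astrocytes than in neurons by 3.19 ± 0.192 on the log2 scale (SE, adjusted p = 5.83e-10 by limma) and higher than in tissue by 1.63 (3.09-fold, adjusted p = 2.38e-06). A second probe gave differences of 3.48 and 1.59. Bag3 (chr7:128523583-128546981) followed the same order. Its level was 11.94, 11.65, 11.83, 11.66 and 11.57 in astrocytes, 10.07, 10.25, 10.76, 10.54 and 10.48 in tissue, and 8.51, 8.25, 8.43, 8.59 and 9.10 in neurons. No astrocyte array fell to the level of any other array, and no neuron array rose to that of any tissue array. The astrocyte level exceeded the neuron level by 3.16 ± 0.165 (SE, adjusted p = 1.26e-10 by limma) and the tissue level by 1.31 (2.48-fold, adjusted p = 4.93e-06).

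Among the other small heat shock proteins, Hspb6, known from smooth and cardiac muscle and from astrocytes, averaged 11.23 ± 0.186 in astrocytes, 10.23 ± 0.273 in tissue and 9.42 ± 0.147 in neurons (SD, n = 5 arrays). Its groups did not overlap either, and the difference between astrocytes and neurons was 3.50-fold (adjusted p = 1.54e-08 by limma). Hspb1, the mouse counterpart of human HSP27, averaged 10.19 ± 0.477 in astrocytes against 8.49 ± 0.595 in neurons and 8.53 ± 0.233 in tissue. Its highest neuron array, at 9.48, reached into the astrocyte range, whose lowest array was at 9.46. The difference from neurons was 1.70 ± 0.268 (SE, adjusted p = 4.22e-05 by limma). A second, dimmer Hspb1 probe gave -0.15 for the same comparison (adjusted p over all probes 0.704), so the 2 probes disagreed. Hspb3 was above background on 0 of 5 saline arrays of either sorted preparation and on 3 of 5 in tissue, where it was at least 1.08-fold higher than in astrocytes (adjusted p = 0.000126 by limma) and at least 1.10-fold higher than in neurons. Of the 4 small heat shock proteins measured, 3 were called higher in astrocytes than in neurons and than in tissue (27% and 24.2% of all genes). Mural markers, from cells in which Hspb1 and Hspb6 are also known, were higher in astrocytes than in neurons by a median of 3.98 on the log2 scale, with 4 of 4 called, and their part in the result was not tested.

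**Figure D1:**
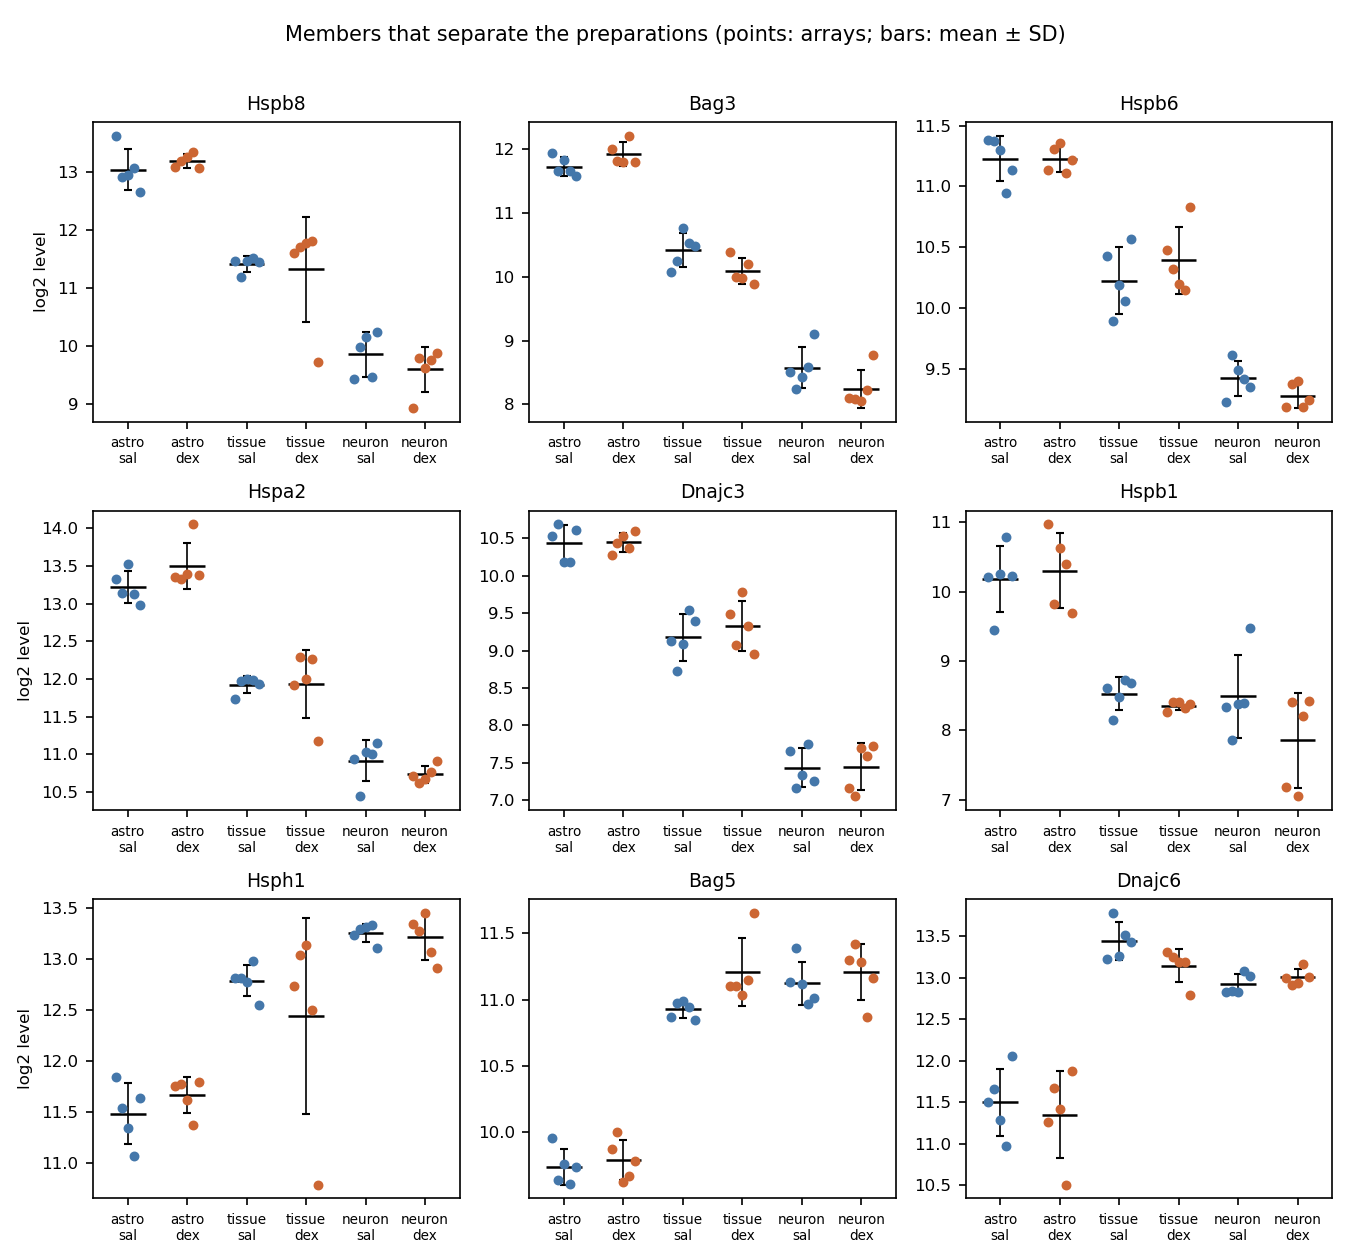
Log2 levels of 9 members on the 30 arrays, with saline in blue and dexamethasone in orange. Points are arrays and black bars the group mean with the SD. Hspb8, Bag3, Hspb6, Hspa2 and Dnajc3 run from high in astrocytes to low in neurons, Hsph1, Bag5 and Dnajc6 are lowest in astrocytes, and the dexamethasone tissue array at the far right of its group falls to 9.72 for Hspb8 and 10.79 for Hsph1.

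In the HSP70 family, Hspa2, best known from the testis, was above background on all 30 arrays. Its level under saline was 13.32, 13.15, 13.53, 13.13 and 12.98 in astrocytes, 11.73, 11.97, 11.995, 11.99 and 11.94 in tissue, and 10.94, 10.45, 11.03, 11.01 and 11.16 in neurons. Again the groups were separate, and astrocytes exceeded neurons 4.93-fold (2.30 ± 0.144 log2, SE, adjusted p = 9.33e-10 by limma) and tissue 2.46-fold. A second probe gave 2.59 and 1.57 for these comparisons. Hspa5 (BiP), the HSP70 of the endoplasmic reticulum, was higher in astrocytes than in neurons by 0.67 and than in tissue by 0.92, both called. Hspa8, the constitutive cytosolic form, was lower in astrocytes than in tissue (-0.61 ± 0.138 log2, SE, adjusted p = 0.00146 by limma), and its difference from neurons, -0.31, was not called (adjusted p = 0.0646). The mitochondrial Hspa9 was lower in neurons than in tissue (-0.32 log2, adjusted p = 0.0254 by limma) and was not called in the astrocyte comparisons.

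Hsph1, the HSP110 exchange factor of HSP70, went the other way. Its level under saline was 13.23, 13.29, 13.31, 13.33 and 13.11 in neurons, 12.81, 12.81, 12.77, 12.98 and 12.55 in tissue, and 11.84, 11.53, 11.34, 11.06 and 11.63 in astrocytes. The 3 groups did not overlap, with neurons highest. Astrocytes were 3.41-fold below neurons (-1.77 ± 0.140 log2, SE, adjusted p = 1.41e-08 by limma) and 2.47-fold below tissue. Neurons exceeded tissue by 0.47 (adjusted p = 0.0208), a call that was lost when arrays were scaled to their medians, when all 30 arrays entered the fit or when the saline tissue array of replicate 5 was left out. Hspa12a was above background on 0 astrocyte arrays and 2 of 5 neuron arrays, with a level in neurons at least 1.09-fold above that in astrocytes. Hspa12b, known from endothelial cells, averaged 9.33, 9.14 and 8.33 in astrocytes, neurons and tissue. It was called higher in each sorted preparation than in tissue, by 1.00 and 0.81, and 5 of 5 endothelial markers were likewise higher in each, 5 and 4 of them called. The part of those cells in the result was not tested.

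The inducible HSP70 genes Hspa1a (chr17:34969359-34972156) and Hspa1b (chr17:34956429-34959238) are near-identical neighbouring copies, and which copy a probe reads is uncertain. The Hspa1a probe read 8.99, 8.32, 9.9996, 9.91 and 9.61 in astrocytes under saline, 7.81, 7.98, 7.82, 7.97 and 6.46 in neurons and 6.28, 7.36, 6.72, 6.87 and 7.34 in tissue. Every astrocyte array lay above every other array. The difference was 1.76 ± 0.348 log2 from neurons and 2.45 ± 0.348 from tissue (SE, adjusted p = 0.000377 and 1.74e-05 by limma). The Hspa1b probe read 7.94, 7.78, 9.10, 8.63 and 8.42 in astrocytes, and was above background on 1 of 5 neuron arrays and 1 of 5 tissue arrays. It was higher in astrocytes by 1.92 and 2.24, and a second Hspa1b probe by 1.55 and 0.92, all called. Since most neuron and tissue arrays were not above background, these sizes depend on the background step, and without background correction the first 2 were 0.967 and 1.13 (1.14 and 1.47 for Hspa1a), still called. Sorting requires dissociation, and 7 immediate early genes known to respond to it (Fos, Jun and others) also differed between the preparations. Their mean level under saline was 10.97 in astrocytes (lowest array 10.12, highest 11.63), 9.56 in neurons (9.36 to 9.87) and 8.85 in tissue (8.69 to 8.99), 6 of 7 were called higher in astrocytes than in tissue, and 5 higher and 1 lower than in neurons. The lower one was Egr1, at 14.1 in astrocytes, 14.7 in neurons and 14.5 in tissue. Their part in the result was not tested.

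**Figure D2:**
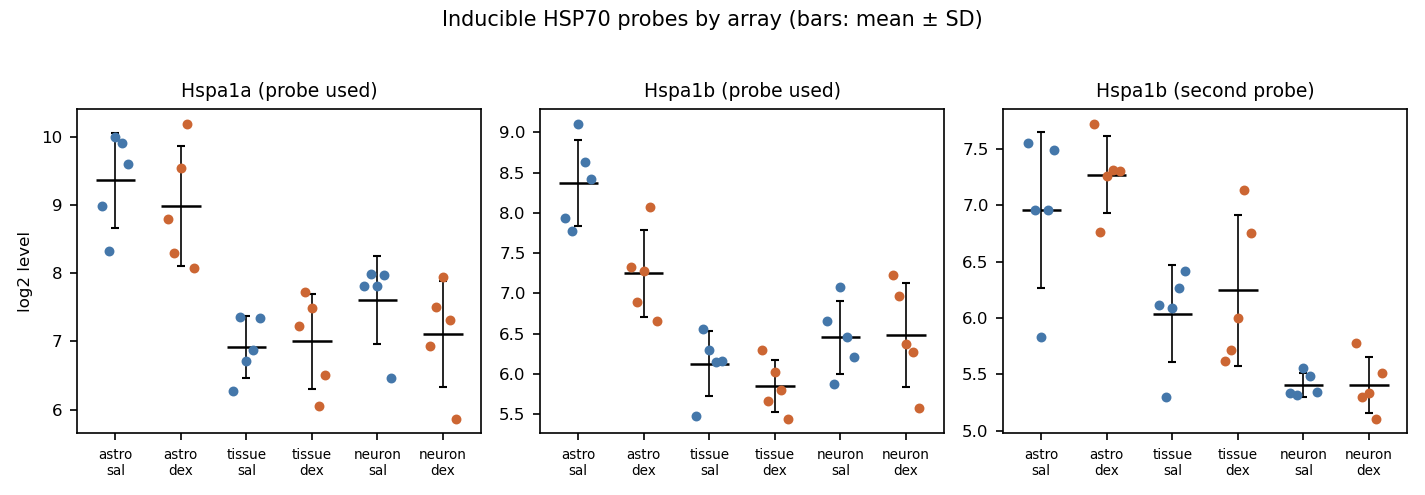
Log2 levels on 30 arrays of the Hspa1a probe, the Hspa1b probe used and the second Hspa1b probe, with saline in blue, dexamethasone in orange, and black bars for the mean with the SD of 5 arrays. All 3 probes are highest in astrocytes, and after dexamethasone the used Hspa1b probe averages 7.25 against 8.37 while the second averages 7.27 against 6.96.

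The proximal promoters of the members were read from RefSeq (GRCm38.p6), which held 82 promoters of 63 of the 74 members. Heat shock elements are runs of inverted GAA units, and here a pair of units (GAANNTTC or TTCNNGAA, each of which reads alike on both strands) was sought in the 250 bases before each start. Such a pair stood in 17 member promoters (20.7%), those of 15 genes, and in 12.8% of the 32851 promoters in the table. Sequences of 3 units (GAANNTTCNNGAA or TTCNNGAANNTTC, each holding overlapping pairs) stood in 4 member promoters, of Dnajb6, Hspd1 and Hspe1 (4.88%, against 0.466%). Both Dnajb6 promoters held the same element, seen from overlapping windows, and the facing genes Hspd1 and Hspe1 also shared one, so these promoters are not independent. The 120 bases before the start are shown for the inducible HSP70 copies, for some other members that separated the preparations and for Hspe1. These were picked and do not stand for the members at large. Pairs are in capitals. For Hsph1 the start is the first listed and lies within the gene.
Hspa1a (chr17:34972157-34972276, minus strand): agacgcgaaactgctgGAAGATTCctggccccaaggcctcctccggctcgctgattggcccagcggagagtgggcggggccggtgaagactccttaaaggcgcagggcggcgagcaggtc
Hspa1b (chr17:34959239-34959358, minus strand): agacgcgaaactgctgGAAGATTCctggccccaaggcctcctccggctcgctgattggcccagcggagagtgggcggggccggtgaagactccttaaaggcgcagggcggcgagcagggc
Hspb1 (chr5:135887799-135887918, plus strand): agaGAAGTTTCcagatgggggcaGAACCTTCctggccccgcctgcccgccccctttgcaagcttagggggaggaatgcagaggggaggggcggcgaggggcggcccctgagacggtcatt
Hsph1 (chr5:149636337-149636456, minus strand): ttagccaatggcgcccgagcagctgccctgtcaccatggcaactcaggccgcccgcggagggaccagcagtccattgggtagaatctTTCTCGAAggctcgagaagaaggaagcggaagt
Hspe1 (chr1:55088028-55088147, plus strand): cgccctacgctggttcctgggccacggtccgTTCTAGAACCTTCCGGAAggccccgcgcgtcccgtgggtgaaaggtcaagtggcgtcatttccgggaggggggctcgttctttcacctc
Bag3 (chr7:128523463-128523582, plus strand): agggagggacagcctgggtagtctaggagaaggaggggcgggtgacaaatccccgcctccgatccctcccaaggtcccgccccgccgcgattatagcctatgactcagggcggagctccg
Hspb8 (chr5:116422865-116422984, minus strand): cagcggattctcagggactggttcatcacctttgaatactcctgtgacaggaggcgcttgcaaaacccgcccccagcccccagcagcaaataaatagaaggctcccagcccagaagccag
The Hspa1a and Hspa1b stretches were identical at 119 of 120 bases. Hspb1 held 2 pairs, and in Hspe1 the capitals are an unbroken run of 3 overlapping pairs. Hspa1a, Hspa1b and Hspb1, higher in astrocytes, and Hsph1, lower there, all held a pair, while Bag3 and Hspb8 held 0 in these letters. Among members with large differences that are not shown, Dnajc3, Hspa2, Dnajc24, Dnajc6 and Bag5 also held 0. Dnajc27 and a promoter of Hspb6 held a pair. A link between pairs and the differences was not tested. Glucocorticoid receptor half-sites facing each other (ACANNNTGT) stood in 3 member promoters, of Cct5, Hspa1l and Hspb3 (3.66%, against 5.84%). The longer form GNACANNNTGTNC stood in 0 of the 82, against 0.387% of all.

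In the J-domain proteins the differences ran both ways. Dnajc3 (P58IPK), a co-chaperone of Hspa5 in the endoplasmic reticulum, read 10.52, 10.69, 10.18, 10.18 and 10.61 in astrocytes under saline, 9.13, 8.73, 9.09, 9.54 and 9.39 in tissue, and 7.66, 7.16, 7.34, 7.75 and 7.25 in neurons. Its groups were separate, and astrocytes exceeded neurons 8.01-fold (3.00 ± 0.173 log2, SE, adjusted p = 3.48e-10 by limma). Dnajc24, which takes part in the making of diphthamide, was 3.33-fold higher in astrocytes than in neurons. Dnajb9 and Dnajb11, which serve the endoplasmic reticulum with Hspa5, were higher in astrocytes than in neurons by 1.03 and 0.38 and than in tissue by 0.71 and 0.47, all called. Dnajc6 (auxilin), the J-domain protein that uncoats clathrin-coated vesicles in neurons, was lower in astrocytes. It averaged 11.50 ± 0.408 in astrocytes, 12.92 ± 0.124 in neurons and 13.44 ± 0.227 in tissue (SD, n = 5 arrays). Astrocytes were 3.86-fold below tissue (adjusted p = 1.26e-07 by limma) and 2.68-fold below neurons. Dnajc5, the cysteine string protein of synaptic vesicles, was lower in astrocytes than in neurons and tissue by smaller amounts (-0.40 and -0.74, both called). Dnajb1, the main cytosolic J-domain partner of HSP70, was lower in astrocytes than in tissue (-0.995 log2, 1.99-fold) and in neurons (-0.69). Of the 24 class C members, 5 were called higher and 7 lower in astrocytes than in neurons. Of the 10 class B members, 4 were called higher and 3 lower. Those called were 50% of class C and 70% of class B, beside 58.2% of all genes (27% higher and 31.2% lower). No test of these shares was made.

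The other BAG proteins did not follow Bag3. Bag5, an exchange factor and modulator of HSP70, averaged 9.74 ± 0.136 in astrocytes, 11.12 ± 0.165 in neurons and 10.93 ± 0.0646 in tissue. Its astrocyte arrays lay below all others, and the difference from neurons was 2.60-fold (-1.38 ± 0.112 log2, SE, adjusted p = 1.9e-08 by limma). Bag4 was lower in astrocytes than in neurons and tissue (-0.63 and -0.70, both called), and Bag1 was called in no comparison.

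Under saline all 7 CCT subunits measured were lower in astrocytes than in neurons, by 0.24 to 0.86, and lower than in tissue, by 0.27 to 0.72. The direction was the same under each of the scalings tried. In each comparison 4 of the 7 were called, beside 31.2% and 27.6% of all genes called lower. With quantile scaling the 4 were Cct7, Cct6a, Cct3 and Cct8, and the number called against neurons was 2 with array medians and 1 with cyclic loess. Cct7 differed most from neurons, with levels of 7.64, 7.72, 7.65, 7.29 and 7.56 in astrocytes against 8.49, 8.47, 8.58, 8.26 and 8.37 in neurons. On the dexamethasone arrays, with the tissue array that stood apart kept in the fit, the direction was not uniform. Cct2 was higher in astrocytes than in neurons (0.22) and in tissue (0.24), and Cct5 was higher than in tissue (0.15). The other differences were negative. None of the 7 was called against neurons there, and against tissue only Cct6a (-0.79) and Cct8 (-0.41) were. Under saline Tcp1, the subunit whose symbol lies outside the rule, was also lower in astrocytes than in neurons and in tissue (-0.78 and -0.73, both called). Of the HSP90 proteins, the cytosolic Hsp90aa1 was lower in astrocytes than in neurons and tissue (-0.77 and -0.64, adjusted p = 0.000191 and 0.00123 by limma). Hsp90b1 (GRP94), of the endoplasmic reticulum, was higher in astrocytes than in tissue (0.53), and its difference from neurons was not called; Hsp90ab1 had no probe named for it in the annotation used and was not analysed here. Stip1 was lower in astrocytes in both comparisons (-0.60 and -0.71), whereas Ptges3 was lower in neurons than in astrocytes and in tissue, by 0.44 in each case. The mitochondrial chaperonin Hspd1 was called in no comparison, and its partner Hspe1 was higher in astrocytes than in neurons and in tissue (0.34 and 0.46, both called).

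**Figure D3:**
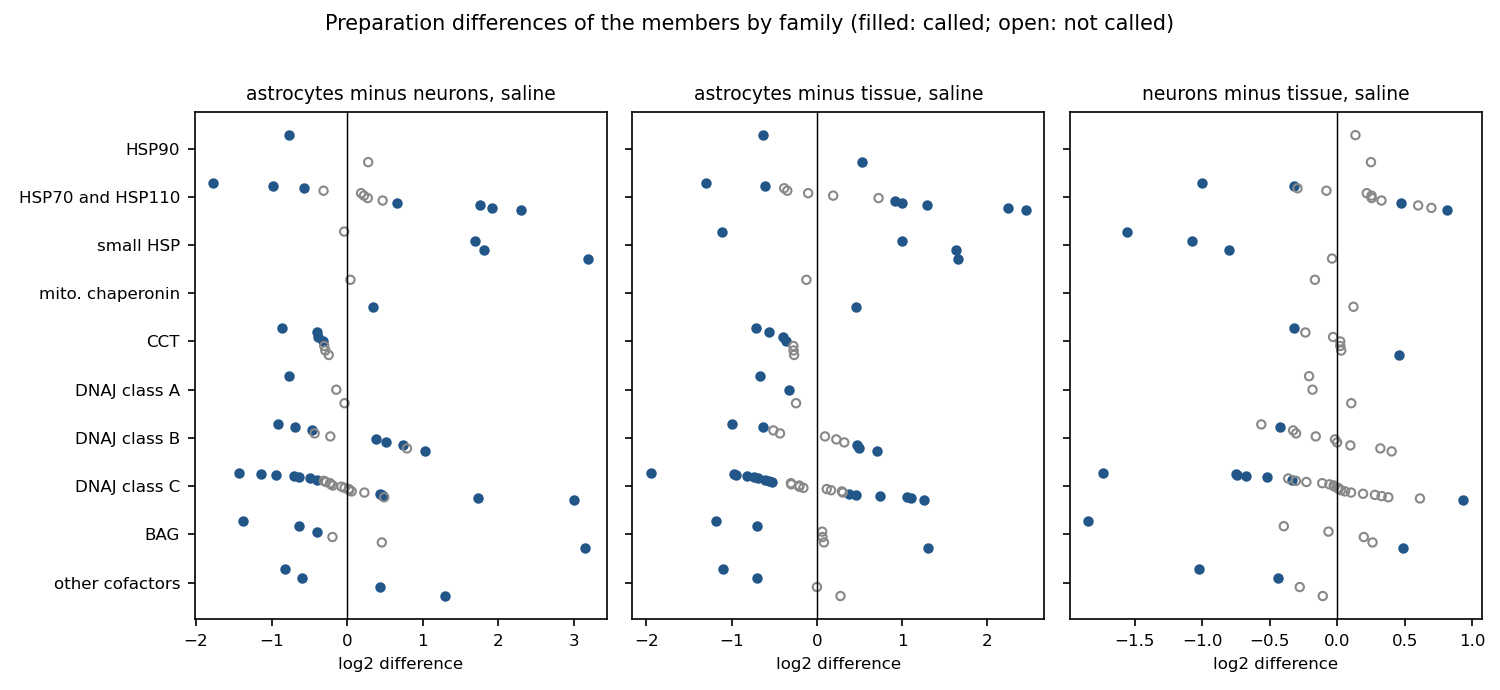
Log2 difference under saline of each of the 74 members, by family, for astrocytes minus neurons, astrocytes minus tissue and neurons minus tissue (10 arrays compared in each, 15 in the fit). Filled points were called at an adjusted p under 0.05 and open points were not. The small heat shock proteins other than Hspb3 lie to the right in the astrocyte panels, and all 7 CCT points lie to the left.

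The neuron preparation differed least from tissue. Besides Bag3 (-1.84), Dnajc3 (-1.74), Hspb8 (-1.56), Hspa2 (-1.01) and Hspb6 (-0.80), Hspbap1, a partner of Hspb1, was lower in neurons (-1.02, adjusted p = 0.00774 by limma). The 5 members called higher in neurons were Dnajc1 (0.93), Hspa12b (0.81), Bag6 (0.49), Hsph1 (0.47) and Cct7 (0.46). With array medians in place of quantiles 0 of these 5 were called, and 12 members were called lower. Without the saline tissue array of replicate 5, 13 members were called in place of 21. The Bag6 call was lost in 10 of 24 alternatives, cyclic loess and no detection filter among them. On the 15 dexamethasone arrays only 1 member, Hspa12b (1.13), was called higher in neurons than in tissue. Without the array that stood apart 2 members were.

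Of the 33 further probes above background, those of called members had the sign of the probe used in 17 of 19 cases for astrocytes against neurons, 21 of 22 for astrocytes against tissue and 6 of 7 for neurons against tissue. The exceptions were Dnajc10 and Hspb1 in the first, Dnajc2 in the second and Dnajc5 in the last.

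The preparations were compared again on the dexamethasone arrays, a choice made after the saline values had been seen; these arrays came from other mice but shared the chips. With all 15 arrays 31 of the 44 astrocyte-neuron calls were made again with the same sign (70.5% of the saline calls and 93.9% of the 33 calls on these arrays, which were 53.1% of all genes). Without the dexamethasone tissue array that stood apart, 41 of the 44 were (93.2% of the saline calls and 87.2% of 47, which were 59.5% of all genes). For astrocytes against tissue, 36 of 45 were called again with that array and 42 of 45 without it (80% and 93.3% of the saline calls, 92.3% and 91.3% of the calls on these arrays, with 46.1% and 50.6% of all genes called). For neurons against tissue, 11 of 21 were called again with it and 13 without it (52.4% and 61.9% of the saline calls, 91.7% and 76.5% of the calls on these arrays, with 24.2% and 30.6% of all genes called). In each of these fits 0 members were called with opposite signs.

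Dexamethasone changed 0 of the 74 members past the threshold in astrocytes, in neurons and in tissue. In astrocytes 233 genes, or 1.76% of all, were called in the same fit; in neurons 0 genes and in tissue 5 (0.0378%) were called. A response to the agent was seen in the astrocyte preparation. All 4 known targets of the glucocorticoid receptor examined (Fkbp5, Tsc22d3, Sgk1 and Zbtb16) were called higher there, and Fkbp5, a co-chaperone of HSP90 outside the rule, rose by 3.87 ± 0.236 on the log2 scale (SE, adjusted p = 2.48e-05 by limma). In tissue 1 of these 4 was called, Fkbp5, and in neurons 0. The neuron means after saline and dexamethasone were 9.91 and 10.54 for Fkbp5 and 7.13 and 7.99 for Zbtb16. They were 12.42 and 12.56 for Sgk1 and 11.84 and 11.76 for Tsc22d3, so 3 of the 4 were higher. At an unadjusted p under 0.05 there were 2 members in astrocytes, 1 in neurons and 2 in tissue, when 10.1, 7.05 and 5.68% of all genes passed that mark. The median change of the members was 0.02 in astrocytes, -0.03 in neurons and -0.08 in tissue, beside -0.01, -0.01 and -0.04 over all genes. The 95% interval of the change lay within 1 log2 unit on either side of 0, that is within 2-fold, for 68 members in astrocytes, 69 in neurons and 67 in tissue (82.2, 89.2 and 80.8% of all genes). The difference in response between preparations was also tested, and 0 members were called in each of the 3 comparisons (0.832, 0.355 and 0.0529% of all genes), with 3, 3 and 0 at an unadjusted p under 0.05 in the order astrocytes against neurons, astrocytes against tissue and neurons against tissue (7.26, 6.49 and 4.5% of all genes).

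The members nearest to the threshold in astrocytes were Hspa1b, Bag2 and Cct2. The Hspa1b probe read 7.94, 7.78, 9.10, 8.63 and 8.42 after saline and 7.33, 6.90, 7.28, 8.07 and 6.66 after dexamethasone. The dexamethasone array of replicate 4, at 8.07, lay within the saline range, and the value after dexamethasone was lower on 5 of 5 chips. The difference was -1.12 ± 0.302 (SE, 95% interval -1.79 to -0.46, adjusted p = 0.107 by limma). Over 18 alternative settings the difference ran from -1.33 to -0.405, the latter with the mean of its detected probes, and was -0.609 without background correction. The adjusted p ran from 0.0319 to 0.515, and it passed the threshold when all 30 arrays were fitted together and when the dexamethasone array of replicate 4 was left out. The second Hspa1b probe went from 6.96 to 7.27, the opposite direction, and the Hspa1a probe differed by -0.38 (95% interval -1.34 to 0.58). Bag2, an inhibitor of the ubiquitin ligase Stub1 (CHIP), read 7.15, 6.58, 7.74, 7.19 and 6.73 after saline and 7.86, 7.99, 7.62, 7.38 and 7.59 after dexamethasone. One saline array reached into the dexamethasone range, and the difference was 0.61 ± 0.217 (SE, adjusted p = 0.283 by limma). Cct2 differed by 0.45 ± 0.212 (adjusted p = 0.512). The differences in response of Hspa1b (-1.15 between astrocytes and neurons, adjusted p = 0.338) and of Bag2 (0.83 between astrocytes and neurons, adjusted p = 0.424, and 0.77 between astrocytes and tissue, adjusted p = 0.644) were not called. Without the arrays of replicate 5 the last was 0.716 (adjusted p = 0.709).

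**Figure D4:**
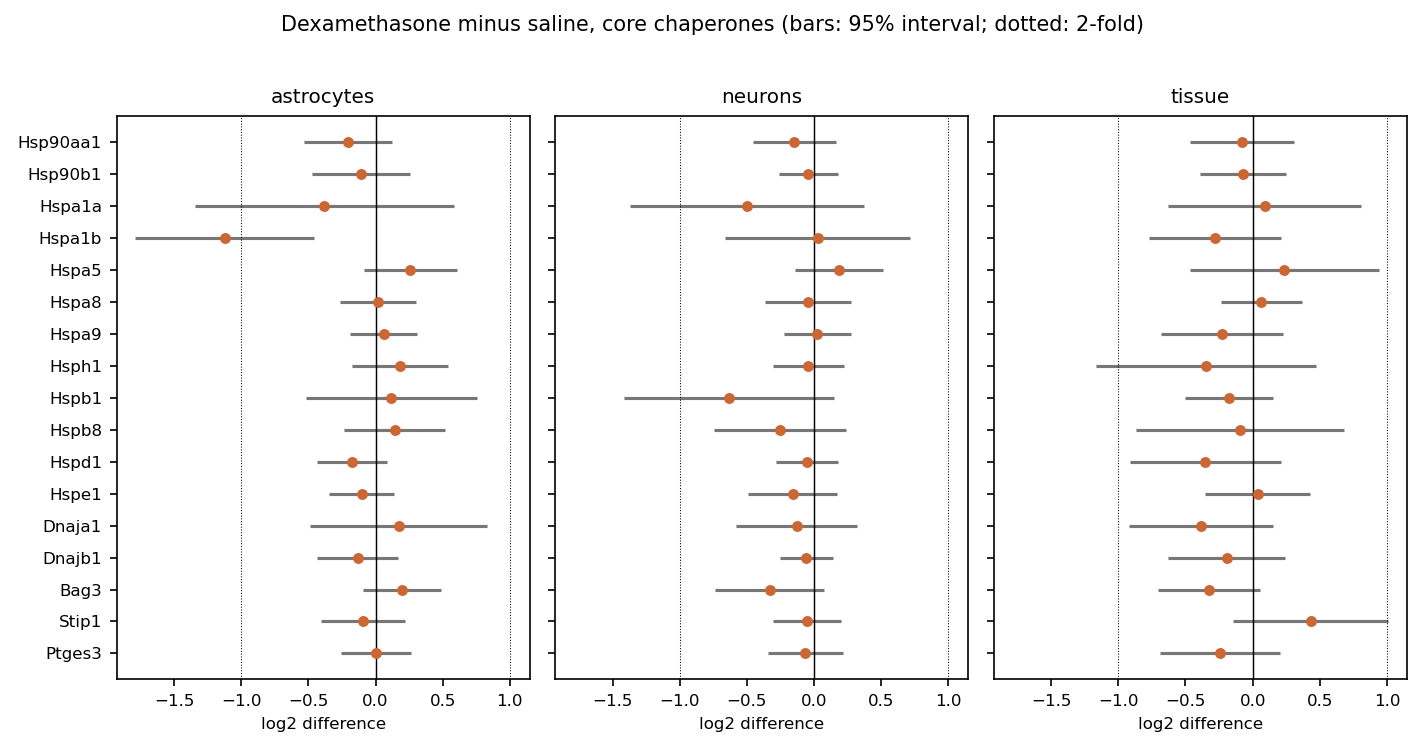
Log2 difference of dexamethasone minus saline in each preparation for 17 core members, with 95% intervals from limma (5 arrays per group). Dotted lines mark 2-fold in either direction, and the interval of Hspa1b in astrocytes, -1.79 to -0.46, is the only one in the astrocyte panel that does not reach 0, with an adjusted p of 0.107.

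In astrocytes the 95% interval of the change with dexamethasone, on the log2 scale, ran from -0.53 to 0.12 for Hsp90aa1, from -0.27 to 0.30 for Hspa8, from -0.09 to 0.61 for Hspa5 and from -0.28 to 0.28 for Hspb6. For Stip1 and Ptges3, which with HSP90 assemble the receptor that dexamethasone binds, the intervals were -0.41 to 0.22 and -0.26 to 0.26. Bag3 read 12.01, 11.81, 11.80, 12.21 and 11.80 after dexamethasone, which overlapped its saline values, and Hspb8 differed by 0.14 ± 0.172 (SE). Among 36 other chaperone and heat shock genes outside the rule, 2 were called higher in astrocytes, 0 in neurons and 1 in tissue, and 0 were called lower. The 2 were Fkbp5 and Cdc37l1, a relative of the HSP90 co-chaperone Cdc37, which differed by 0.68 ± 0.141 (SE, adjusted p = 0.0345 by limma), and the 1 in tissue was Fkbp5.

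In neurons the smallest p belonged to Cct7, Dnajc19 and Bag3. Cct7 read 8.49, 8.47, 8.58, 8.26 and 8.37 after saline and 8.56, 8.12, 8.02, 7.68 and 7.96 after dexamethasone. One dexamethasone array lay within the saline range, and the difference was -0.37 ± 0.153 (SE, adjusted p = 0.678 by limma). Dnajc19, of the mitochondrial import machinery, differed by -0.18 (adjusted p = 0.774) and by 0.03 when the mean of all its detected probes was taken. Bag3 differed by -0.33 (adjusted p = 0.797), Hspb1 by -0.63 (95% interval -1.42 to 0.15) and Hspb8 by -0.25. These 3 genes were high in astrocytes. Of the other members first named above as higher there, Hspa1a, Dnajc24, Hspa2 and Hspb6 also had lower means in neurons after dexamethasone, none of them called. Dnajc3 (7.43 and 7.45) and Hspa1b (6.46 and 6.48) had like means in neurons after saline and dexamethasone. Hspa1b was mostly not above background in saline neurons. In the same neuron arrays the 7 astrocyte markers were all lower after dexamethasone, with 0 called. Their mean level went from 10.02 (9.19 to 10.7 on single arrays) to 8.82 (8.20 to 9.35), a median difference of -1.36, and their part in the result was not tested.

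In tissue the smallest p belonged to Dnajc1, Hspa12b and Dnajc2, the last with a difference of 0.32 (adjusted p = 0.877), and 0.22 without the dexamethasone array of replicate 5 (adjusted p = 0.730). Dnajc1, a J-domain protein of the endoplasmic reticulum, read 7.25, 6.62, 7.04, 7.17 and 7.19 after saline and 7.72, 8.19, 7.57, 7.61 and 7.48 after dexamethasone. These groups did not overlap, as was so for 3 members (Bag5, Dnajc1 and Hspa12b) and 1.37% of all genes in tissue, for 0 members in astrocytes (3.79%) and for 0 in neurons (1.09%). The difference was 0.66 ± 0.184 (SE, adjusted p = 0.514 by limma), and 0.71 (adjusted p = 0.226) without the dexamethasone array of replicate 5. Hspa12b read 8.35, 8.18, 8.50, 8.25 and 8.37 after saline and 7.90, 7.86, 8.16, 7.50 and 7.49 after dexamethasone, again without overlap. It differed by -0.55 ± 0.168 (SE, adjusted p = 0.629 by limma), and all 5 endothelial markers were lower as well, by a median of -0.15, with 0 called and their part not tested. Without that array the Hspa12b difference was -0.47 (adjusted p = 0.376).

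The array of replicate 5 widened the tissue values of many members. Its level lay outside the range of the other 4 dexamethasone tissue arrays for 59 of the 74 members (67.1% of all genes). It was more than 1 log2 unit from their mean for 20 members (24.3% of all genes). Hspb8 read 9.72 on it and 11.62 to 11.81 on the other 4, Hspd1 10.92 against 12.25 to 12.39, and Stip1 12.76 against 11.29 to 11.53. The median SD of the members in dexamethasone tissue was 0.416 with the array and 0.210 without it. Without it 0 members were called among 14 genes called in all, 3 members had an unadjusted p under 0.05 (8.6% of all genes), and 67 had an interval within 1 log2 unit. Hspb8 then differed by 0.31 in place of -0.09 (adjusted p = 0.487), the third of those 3 members beside Dnajc1 and Hspa12b.

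**Figure D5:**
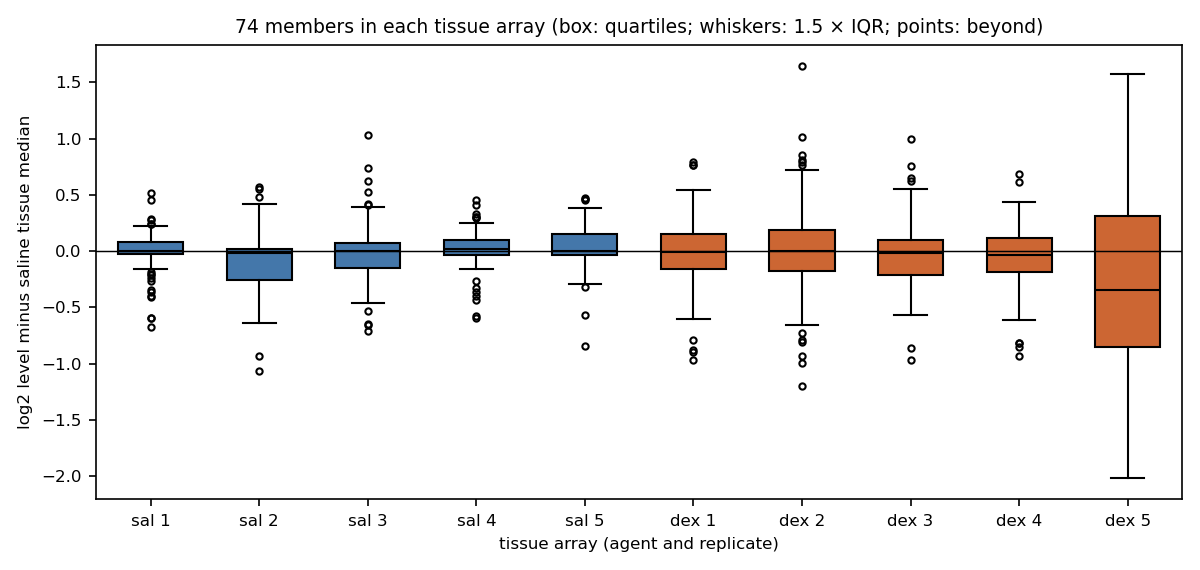
Levels of the 74 members on each tissue array relative to their median over the 5 saline tissue arrays (log2), with saline in blue and dexamethasone in orange. Boxes give the quartiles, whiskers reach to 1.5 times the interquartile range and points lie beyond; the dexamethasone array of replicate 5 is the widest.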

How the data were processed

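The authors deposited a table of log2 intensities for 46174 probes on 30 Illumina bead arrays, not normalized between arrays and without detection p, and a second table, whose values equalled, within 1e-09, a further log2 of those intensities after quantile normalization. The authors' software and any background step are not given in the sources here. Starting from the first table, 1588 olfactory, vomeronasal, trace amine and taste receptor probes stood in for negative controls (limma normexp, offset 16), followed by quantile normalization and log2. The detection p was the share of these probes at or above a probe's intensity, and a probe was kept with p under 0.05 on at least 5 arrays. Symbols came from the platform annotation, updated through RefSeq (GRCm38.p6). The probe with the highest mean level stood for a gene. Levels are not comparable between genes.

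Tests were two-sided, in R 4.3.3 with limma 3.58.1 (lmFit, eBayes), with Benjamini-Hochberg adjustment over 13228 genes and calls at an adjusted p under 0.05. Dexamethasone was tested on the 10 arrays of a preparation, differences in response on all 30, and preparations on the 15 saline arrays. For a gene above background on 0 arrays of a group a bound is given. The brighter group's mean is then set against a floor, averaged over arrays, that is the lowest level of any detected probe or, where higher, the level of the gene itself. The members, lists and naming rule (called members with the largest differences, the 3 smallest p where none was called, and a core list) were chosen with earlier results of these data known. Genes named beyond that rule, such as Bag4, Dnajb9, Hspb6 in the dexamethasone comparisons or Cdc37l1, were chosen after their values were seen. The number of arrays limits the precision.

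The replicate number pairs arrays through the chip, per the labels. After subtraction of group means, the mean correlation of 2 arrays of a preparation sharing a chip was 0.191 for astrocytes, 0.175 for neurons and 0.0473 for tissue (lowest -0.0449, 0.0716 and -0.126), against -0.0469, -0.0439 and -0.0103 for different chips. Alternatives were background, scaling, filter, probe choice, the authors' value table, the chip as a block, all arrays in 1 fit and each array left out. The further probes, the preparations on dexamethasone arrays and the fits without dexamethasone tissue replicate 5 were added after the data were seen. The fits were checked on simulated data.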

Additional observations from a re-analysis of the deposited data

Results flagged for a closer look

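In 23 of 246 groups of 5 arrays, from 41 members named or in the core list, 1 array lay apart from the other 4 (gap over range above 0.71 by Dixon's criterion; chance flags about 1 in 20 groups). Of the 23, 10 came from the dexamethasone tissue array of replicate 5. It was low for Dnajb1 (11.32), Dnajc19 (11.59), Dnajc6 (12.79), Hspa9 (12.35), Hspb8 (9.721), Hspd1 (10.92) and Hsph1 (10.79), and high for Bag5 (11.65), Hspa8 (15.31) and Stip1 (12.76). The dexamethasone astrocyte array of replicate 4 was high for Dnajc2 (9.441), Hsp90b1 (13.15) and Hspa2 (14.05).

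Among the neuron arrays after dexamethasone, replicate 5 was high for Bag3 (8.768) and Dnajc21 (9.628), and replicate 1 was low for Hspb8 (8.934). Among the saline neuron arrays, the low values were Dnajb1 on replicate 1 (11.84, with the others at 11.97 to 11.98), Dnajc1 and Dnajc24 on replicate 2 (6.991 and 8.169) and Hspa1a on replicate 5 (6.462, with the others at 7.81 to 7.984). In saline tissue they were Bag2 on replicate 3 (6.376), Hspa2 on replicate 1 (11.73) and Hspb8 on replicate 2 (11.19).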

How the results depend on the processing

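The count of members called with dexamethasone was 0 under all alternatives in neurons and in tissue, and in astrocytes it was 1, Hspa1b, with all 30 arrays in 1 fit. Leaving out single arrays gave 0 to 1 in astrocytes, 0 in neurons and in tissue, and 0 for each difference in response. Under saline, leaving out single arrays gave 40 to 46 members for astrocytes against neurons, 44 to 47 for astrocytes against tissue and 13 to 23 for neurons against tissue. That last count was 12 with array medians and 12 on the 15 dexamethasone arrays, an alternative chosen after the data were seen. Of the calls, 45.5% were higher in astrocytes than in neurons, and 56.1% with cyclic loess. Against tissue the share was 44.4%, and 29.3% with array medians, under which the median of all genes was -0.19 there, -0.13 in neurons against tissue and -0.23 for dexamethasone in tissue. In neurons against tissue it was 23.8%, and 0% with array medians. Of 63 named differences under 1360 alternatives, 1339 kept their side of the threshold, 18 lost a call, 2 gained one and 1 changed sign (Dnajc19 in neurons, 0.0306 with the mean of its probes); the cause was not tested. The 18 lost calls were all in neurons against tissue. With the chip (replicate number) as a block the members called numbered 47, 46 and 20 in the saline comparisons and 0 elsewhere. The block moved no count of members by over 1.5 times and changed the call of no named member. Over all genes, dexamethasone calls numbered 233 in astrocytes (148 with array medians, 336 with no background correction, 369 with all arrays in 1 fit), 0 in neurons (10 with array medians, 52 with all arrays) and 5 in tissue (0 with array medians, 2 with the block, 13 with all arrays). Genes near background, such as Hspa1b, Hspb3 and Dnaja1, are limited by signal over background.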
